A study of Mus musculus with 6 samples.

Results

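The genes described here are the MYC, MAX and MXD network, a set of 10 transcription factors taken by name from the deposited count table, which holds 46963 gene names besides the spike-in RNAs. All 10 were in the table (Myc, Mycn, Max, Mxd1, Mxd3, Mxd4, Mxi1, Mnt, Mga and Mlx), and 9 of them were among the 14600 genes with enough counts for the fit. Mycn was not. RNA of CD43-depleted splenic B-cells was sequenced from mice that lack an enhancer of the immunoglobulin heavy chain locus and from wt mice, in resting cells and in cells stimulated with lipopolysaccharide (LPS), a bacterial cell wall product that makes B-cells divide. The study asked whether the enhancers of that locus work independently or rely on each other.

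The 3 genotypes were wt, Eμ-deficient (the intronic enhancer with its flanking matrix attachment regions) and 3′RR-deficient (the regulatory region downstream of the constant genes), all on the 129 background, male and female, at 8 to 12 weeks of age. Cells labelled S received LPS at 5 μg per ml for 2 days (48 h), although 1 protocol text among the labels reads mg per ml. Cells labelled NS received none. The labels describe them as kept in culture for 2 days, whereas the study's methods describe them as taken before stimulation, so that culture alone and LPS cannot be told apart here. Each of the 6 groups has 1 library, for which the labels give a pool of 2 mice, and both libraries of 1 genotype may share their mice. The study's methods speak of 2 pools from 4 mice per genotype, while 1 library per genotype and state was analysed here. No difference between genotypes within a state therefore has a replicate check.

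Genes received 16094475 counts in the wt resting library, 13406257 in the Eμ-deficient resting library and 20780706 in the 3′RR-deficient resting library. With LPS they received 21998587, 10936243 and 9111974 counts, in the same order of genotypes. Levels below are CPM, TMM-scaled counts per library, always given in the order wt, Eμ-deficient, 3′RR-deficient.

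As background, MYC and MYCN are activators that bind E-boxes in DNA as dimers with MAX and drive growth and ribosome production. MXD1, MXD3, MXD4, MXI1 and MNT compete for MAX and bring the SIN3 corepressor to the same sites, MGA joins MAX to a Polycomb complex, and MLX is the partner of the glucose-sensing MLXIP proteins. In B-cells MYC is known as a short-lived factor induced on activation, and its deregulation by immunoglobulin enhancers is a classic event in B-cell lymphoma.

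Myc, the activator of the set, was high in resting cells and low with LPS. Its level was 194, 139 and 114 CPM in the resting libraries and 45.7, 35.5 and 67.8 CPM in the LPS libraries. All 3 resting libraries were above all 3 LPS libraries, the wt resting library was the highest of the 6, and the 3′RR-deficient library was the lowest of its state at rest and the highest with LPS. The edgeR fit put the fall at 1.60 on the log2 scale, 3.03-fold (log2 fold change -1.60, SE 0.31, adjusted p = 0.0038, lower in 3 of 3 genotypes). By genotype the log2 ratio of LPS over resting was -2.09 in wt, -1.97 in Eμ-deficient and -0.74 in 3′RR-deficient cells. In bulk samples, fewer cells of a type and less RNA per cell cannot be told apart.

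Mycn, the MYC paralogue of progenitor cells, received 3, 0 and 2 counts at rest and 0 counts in each LPS library. At this depth a count of 0 allows up to 0.414 CPM in the 3′RR-deficient LPS library (upper 95% Poisson limit), so that no difference was detectable.

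Max, the shared partner, stood at 44.2, 41.2 and 44.1 CPM at rest and at 40.9, 43.3 and 40.7 CPM with LPS. The states overlapped, and the fitted log2 fold change was -0.05 (SE 0.21, adjusted p = 0.858, edgeR). Over the alternatives tried it lay between -0.26 and 0.003.

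**Figure D1:**
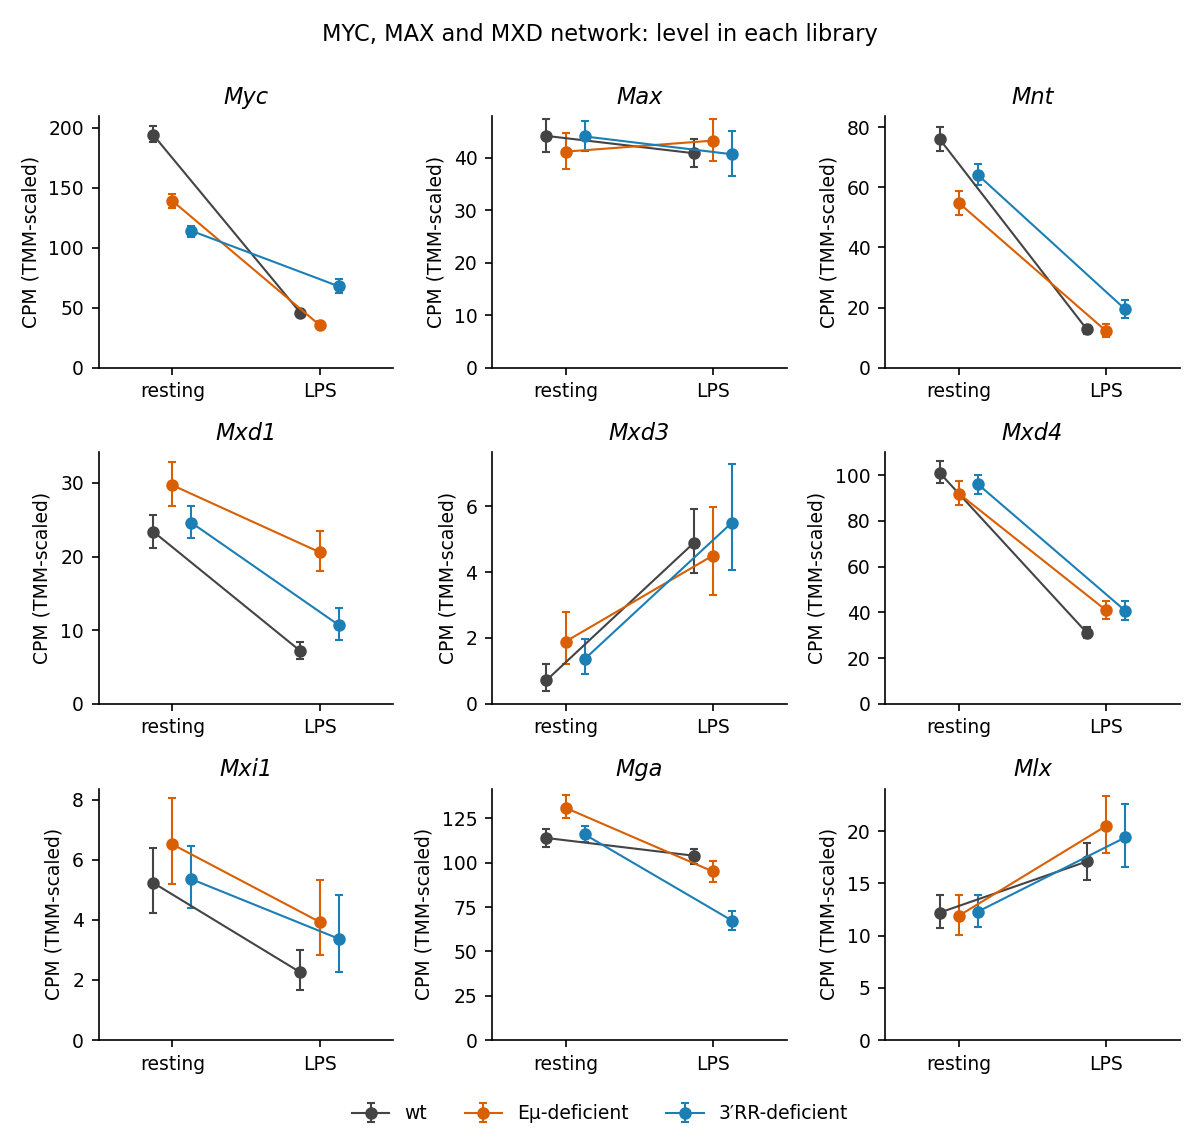
CPM of the 9 tested members (vertical axis, from 0) in resting and LPS libraries, 1 point per library with its 95% Poisson counting interval, coloured by genotype. Myc, Mnt and Mxd4 fall in each genotype, Mxd3 rises in each, and the 6 points of Max lie between 40.7 and 44.2 CPM.

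Among the repressors, Mnt, the broadly expressed antagonist, gave 76.0, 54.8 and 64.1 CPM at rest and 12.7, 12.2 and 19.4 CPM with LPS. Mxd4 gave 101, 91.9 and 96.0 CPM at rest and 31.0, 40.9 and 40.7 CPM with LPS. For both genes the lowest resting library was more than double the highest LPS library. Mnt fell 4.47-fold (log2 fold change -2.16, SE 0.26, adjusted p = 0.00034, edgeR) and Mxd4 2.58-fold (log2 fold change -1.37, SE 0.23, adjusted p = 0.00199, edgeR), each in 3 of 3 genotypes.

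Mxd1, a repressor known from differentiating cells, gave 23.4, 29.7 and 24.6 CPM at rest and 7.17, 20.6 and 10.7 CPM with LPS. The Eμ-deficient LPS library was close below the resting ones, the other LPS libraries far below them. The fitted fall was 2.20-fold (log2 fold change -1.14, SE 0.28, adjusted p = 0.0111, edgeR, lower in 3 of 3 genotypes). It lost its call without genotype as a block (log2 fold change -1.02, adjusted p = 0.0657, where the alternatives ranged from 0.000698 to 0.0657).

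Mxd3, the repressor known from dividing cells, went the other way. Its level was 0.715, 1.89 and 1.36 CPM at rest, from 13, 25 and 28 counts, and 4.88, 4.50 and 5.50 CPM with LPS, from 102, 48 and 49 counts. Each LPS library was above each resting one, and among the resting libraries wt was lowest. The rise was 3.97-fold (log2 fold change 1.99, SE 0.40, adjusted p = 0.00461, edgeR, higher in 3 of 3 genotypes).

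The remaining members were not called by the fit, although the libraries of the states did not overlap. With the trend on GC content removed each of them was called, and other alternatives called some of them. Mxi1, a further repressor, gave 5.23, 6.51 and 5.35 CPM at rest and 2.25, 3.93 and 3.37 CPM with LPS (log2 fold change -0.87, SE 0.31, adjusted p = 0.051, edgeR). Mga gave 114, 131 and 116 CPM at rest and 104, 95.1 and 67.4 CPM with LPS (log2 fold change -0.46, SE 0.24, adjusted p = 0.155, edgeR). The lowest of its 6 values was that of the 3′RR-deficient LPS library. Mlx gave 12.2, 11.9 and 12.3 CPM at rest and 17.1, 20.5 and 19.4 CPM with LPS (log2 fold change 0.64, SE 0.23, adjusted p = 0.0539, edgeR).

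In all, 5 of 9 tested members were called between resting and LPS, 1 higher and 4 lower, where 40.8% of all tested genes were called, 19.7% higher and 21.1% lower. The states did not overlap in 8 of 9 members, against 52.3% of all tested genes. The median log2 fold change of the tested members was -0.87, and that of all tested genes -0.07. Of the calls over all genes, 48.4% were higher with LPS, and 33.4% when libraries were scaled by the spike-ins, which moved the median of all genes to -0.28. The directions of the 5 called members held under each scaling tried, but a scaling moves all genes of a library alike. The log2 ratios of 35 spike-ins, LPS over resting, had an SD of 0.784 in wt, 0.135 in Eμ-deficient and 0.633 in 3′RR-deficient cells. With TMM scaling they ran from -0.47 to 2.50, from -0.409 to 0.126 and from -1.37 to 1.16, in the same order. The part of this spread in the members' changes was not tested. No exact permutation test of 3 against 3 libraries can go below a two-sided p of 0.1, and the bound is higher with libraries paired by genotype. The fit's residual is the departure from additive effects of genotype and state, not the spread between mice.

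**Figure D2:**
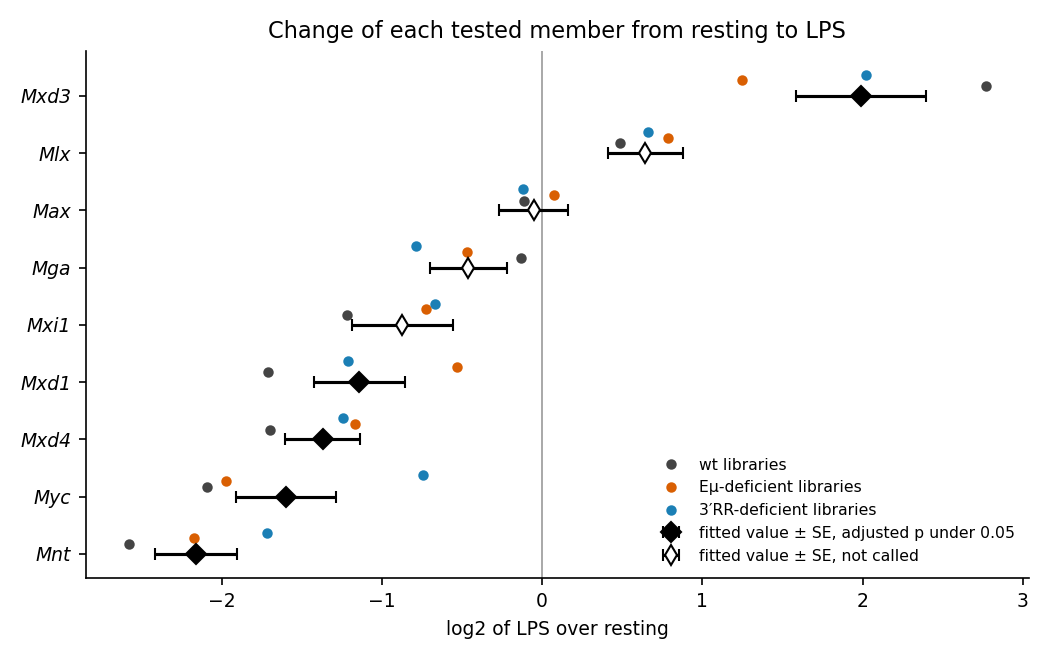
Log2 of LPS over resting (horizontal axis) for the 9 tested members, with the fitted value and its SE as diamonds and the ratio in each genotype as circles. Mnt lies lowest at -2.16 and Mxd3 highest at 1.99, and the circle of the 3′RR-deficient libraries for Myc is at -0.74.

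Levels were also set against the length of all annotated exons of a gene. Which of these exons the cells use was not examined, so orders, sums and ratios between genes are rough. On this scale Myc had the highest level of the set in both states. It was at 54.8 ± 15.1 CPM per kb of exon at rest and 18.3 ± 6.08 with LPS (SD over the 3 genotypes, n = 3). At rest Mnt followed with 14.0 ± 2.29 CPM per kb, then Max with 12 ± 0.48 and Mxd4 with 11.3 ± 0.54. The ranges of these 3 levels over the genotypes overlapped, so their order is not set apart from their spread. Mga at 7.85 ± 0.62, Mlx at 6.07 ± 0.11 and Mxd1 at 3.66 ± 0.48 CPM per kb came next, and Mxi1 at 0.834, Mxd3 at 0.558 and Mycn at 0.0265 CPM per kb were lowest, the ranges of Mxi1 and Mxd3 overlapping. With LPS the order after Myc was Max at 11.6 ± 0.40, Mlx at 9.51 ± 0.88, Mga at 5.78 ± 1.23, Mxd4 at 4.43 ± 0.67 and Mnt at 3.19 ± 0.88 CPM per kb. Mxd3 at 2.09 CPM per kb and Mxd1 at 1.81 then stood side by side, above Mxi1 at 0.467, and the ranges of Mga with Mxd4, Mxd4 with Mnt, Mnt with Mxd1, and Mxd3 with Mxd1 overlapped.

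Summed per kb of exon, Mxd1, Mxd3, Mxd4, Mxi1 and Mnt amounted to 32.7, 28.6 and 30.0 CPM per kb at rest and 9.80, 12.8 and 13.3 with LPS. The level of Myc divided by that of Max, both per kb, was 5.81, 4.47 and 3.41 at rest and 1.48, 1.09 and 2.21 with LPS. Divided by the summed repressors, Myc was at 2.19, 1.79 and 1.39 at rest and at 1.72, 1.02 and 1.87 with LPS. That ratio was lower with LPS in wt and Eμ-deficient cells and higher in 3′RR-deficient cells. Myc and the summed repressors were both lower with LPS in each genotype, while Max lay between 11.3 and 12.3 CPM per kb in all 6 libraries. Within the summed repressors, the share of Mnt was 50.2%, 41.4% and 46.2% at rest and 27.9%, 20.5% and 31.5% with LPS. The share of Mxd3 was 0.923%, 2.79% and 1.91% at rest and 21.0%, 14.8% and 17.4% with LPS, while that of Mxd4 stayed between 36.0% and 37.8% in all 6 libraries.

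**Figure D3:**
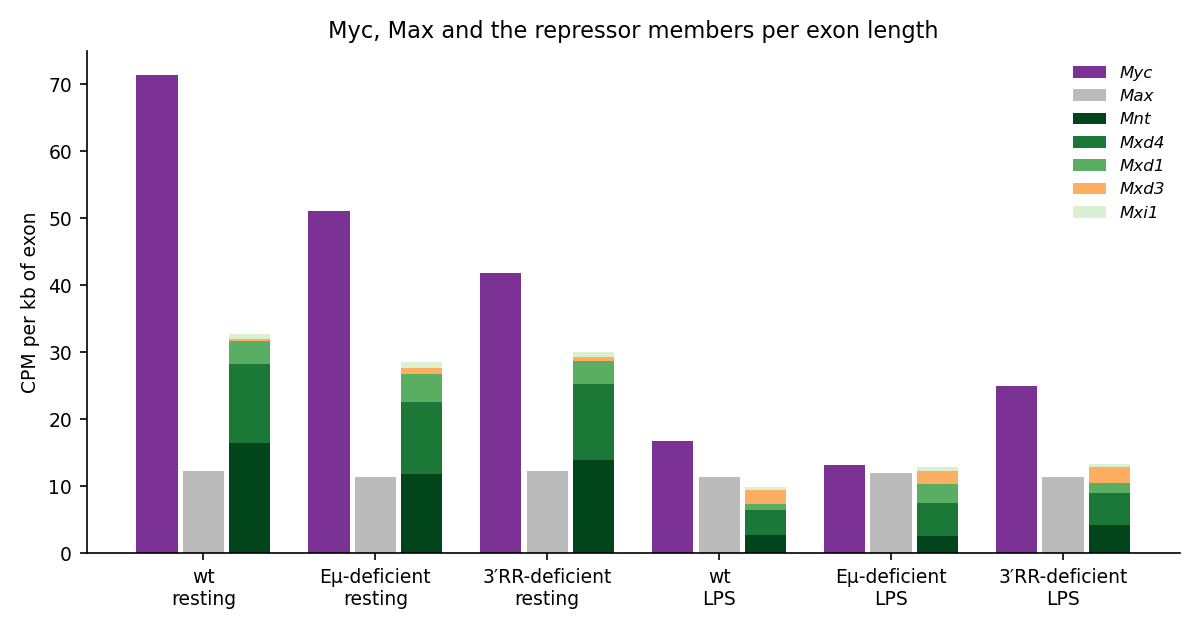
CPM per kb of exon (vertical axis) of Myc, of Max and, stacked, of the 5 repressor members in each of the 6 libraries. The Myc bar is at 71.4 in the wt resting library and at 13.1 to 25.0 with LPS, and the bars of Max lie between 11.3 and 12.3.

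Between the genotypes, no member was called by edgeR over both states, in either comparison. For Eμ-deficient against wt, 1.16% of tested genes were called, and 1 member, Mxd1, had an unadjusted p under 0.05 (log2 fold change 0.93, SE 0.34, adjusted p = 0.395, higher in 2 of 2 states), as had 8.68% of all tested genes. With spike-in scaling the resting log2 ratio of Mxd1 turned from 0.35 to -0.47. For 3′RR-deficient against wt, 0.678% of tested genes were called and 0 members had an unadjusted p under 0.05, beside 5.69% of tested genes, the lowest adjusted p being 0.918. DESeq2 and limma voom called 0 members as well. The members' median log2 fold change was 0.12 in Eμ-deficient and 0.15 in 3′RR-deficient cells, beside -0.01 and 0.04 over all tested genes.

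Within a state, where 2 libraries are compared and no test was made, 1 of 9 members was past 2-fold between Eμ-deficient and wt at rest, against 18.3% of tested genes, and 1 with LPS, against 12.5%. The first was Mxd3, at 1.89 against 0.715 CPM (log2 ratio 1.4, 95% interval 0.38 to 2.49), and the second Mxd1, at 20.6 against 7.17 CPM (log2 ratio 1.52, 95% interval 1.22 to 1.83). The intervals cover counting error only. The Mxd1 ratio in LPS libraries stayed between 1.4 and 1.67 under the other scalings, on the log2(CPM + 1) scale and after removal of the trend on GC content, whereas Mxd3 at rest was at 0.59 with scaling by spike-ins and at 0.75 on the log2(CPM + 1) scale. With spike-ins 2 other members were past 2-fold at rest, Myc at -1.30 and Mnt at -1.29. The proliferation markers summed to 400 CPM in the Eμ-deficient resting library and 244 in wt, with 8 of 10 above wt, Mki67 most in CPM (140 against 45.9), and Mcm2 and Mcm5 below it, and their part in the Mxd3 ratio was not tested.

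Between 3′RR-deficient and wt, 0 of 9 members were past 2-fold at rest, where 9.33% of tested genes were, and 0 with LPS, where 26.6% were. Scaling by spike-ins put Myc past it at rest (-1.02) and 4 members with LPS, namely Myc, Mxd1, Mxi1 and Mnt, at 1.12 to 1.17. At rest Myc had the lowest ratio of the set, at 114 against 194 CPM (log2 ratio -0.77, 95% interval -0.85 to -0.70). With LPS its ratio had the opposite sign, at 67.8 against 45.7 CPM (log2 ratio 0.57, 95% interval 0.42 to 0.72). Eμ-deficient cells had less Myc than wt in both states, with log2 ratios of -0.48 and -0.37.

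The comparison of the 3′RR-deficient and wt LPS libraries moved with GC content. The median log2 ratio was -0.83 in the lowest of 10 equal bins of GC content and 0.82 in the highest, and the log2 ratios of 35 spike-ins there had an SD of 1.27, against 0.157 for the same genotypes at rest. Mga has a GC content of 42.2% over its exons and Mnt of 59.5%. After removal of the trend on GC content, the log2 ratio there went from -0.62 to -0.06 for Mga, from 0.62 to -0.10 for Mnt and from 0.57 to 0.14 for Myc, while that of Mxd3 went from 0.18 to -0.44. At rest the Myc ratio was -0.71 after the same step. The Eμ-deficient and wt resting libraries also differed by GC content, with medians of 0.46 in the lowest bin and -0.44 in the highest. There the same step took Mnt from -0.47 to 0.001, Myc from -0.48 to -0.24 and Mga from 0.21 to -0.07. For LPS over resting, the medians of the lowest and highest bins were 0.47 and -0.72 in wt and -0.17 and 0.01 in Eμ-deficient cells. In 3′RR-deficient cells they were -0.50 and 0.07. The Myc log2 ratio of LPS over resting was 1.34 higher in 3′RR-deficient than in wt cells, and 0.857 higher after removal of the trend. The part of the trend in the Myc ratio of each genotype was not tested.

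**Figure D4:**
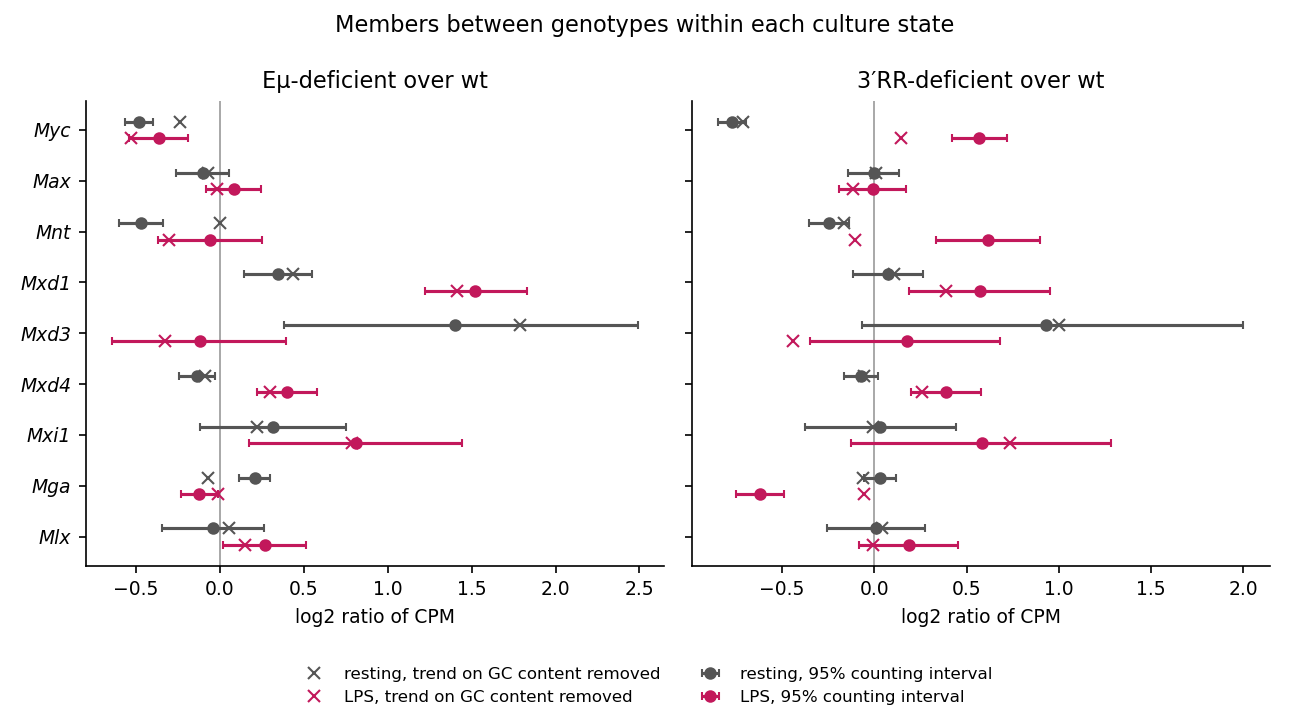
Log2 ratio of CPM to the wt library of the same state (horizontal axis) for 9 members, with 95% counting intervals, and as crosses the ratio after removal of the trend on GC content. Mxd1 in the Eμ-deficient LPS library stands at 1.52, and Mga and Mnt in the 3′RR-deficient LPS library move from -0.62 and 0.62 to near 0.

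The cells carried B-cell transcripts throughout, and all 9 B-cell markers had counts in each library. Their sum was 3390, 2920 and 3840 CPM at rest and 2190, 1890 and 2210 CPM with LPS, and Pax5 stood at 579, 398 and 562 CPM and then 431, 352 and 450. With LPS 4 of 9 fell (2 without the Eμ-deficient libraries or without a genotype block), 44.4% against 40.8% of all tested genes. Among them were the complement receptor gene Cr2 (log2 fold change -2.55, adjusted p = 0.000454, edgeR) and the IgE receptor gene Fcer2a (log2 fold change -1.19, adjusted p = 0.00532, edgeR). Among markers of other cells, the called ones were lower with LPS for myeloid, erythroid, T- and NK-cells. They made up 90.9%, 100%, 75.0% and 75.0% of the tested markers, where 21.1% of all tested genes were called lower. Those called for plasma cells were higher. Myeloid markers summed to 209, 483 and 219 CPM at rest and 49.4, 66.3 and 58.9 with LPS, and 10 of 11 tested fell, Itgax and Csf1r most (log2 fold changes -6.60 and -5.38). Lyz2, the most abundant at rest, was at 79.0, 179 and 59.1 CPM there and at 3.68, 14.9 and 9.66 with LPS. With LPS Flt3, the marker not called, was the most abundant at 27.7, 29.2 and 29.3 CPM. By library, 1 marker was at 0 counts in each resting library and 2 to 4 in the LPS libraries.

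Erythroid markers summed to 3350, 20100 and 3860 CPM at rest and 53.2, 670 and 134 with LPS, and 7 of 7 tested fell, with Hbb-bt at -6.46. Hba-a1, at 1460, 6960 and 1540 CPM and then 19.3, 254 and 68.2, or Hbb-bs, at 1040, 7240 and 1230 CPM and then 20.6, 282 and 38.6, was the most abundant in each library. In Eμ-deficient against wt cells, 6 of these 7 were called, where 1.16% of all tested genes were. The Eμ-deficient sums were the highest of each state. T-cell markers fell in 6 of 8 (Cd8a at -5.38, Cd4 at -4.50; 4 without a genotype block) and NK-cell markers in 3 of 4 (Prf1 at -3.27, Ncr1 at -3.25), in 1 without a genotype block and in 2 without the wt or without the 3′RR-deficient libraries. Lck, at 11.2, 12.6 and 11.0 CPM and then 4.54, 11.4 and 10.9, was the most abundant T-cell marker in all libraries but the Eμ-deficient resting one, where Cd4 was at 24.2 CPM. T-cell markers summed to 27.7, 47.2 and 33.7 CPM at rest and 5.45, 17.2 and 13.3 with LPS, and NK-cell markers to 9.96, 11.3 and 9.92 and then 0.191, 3.56 and 0.674 CPM. In the wt LPS library 3 of 9 T-cell, 2 of 8 erythroid and 4 of 5 NK-cell markers had 0 counts, Cd8a and Ncr1 among them, and in the resting libraries 0 did. Of the plasma cell markers, 2 of 6 rose (3 without the wt libraries), 33.3% against 40.8% of all tested genes, namely Prdm1 at 3.04 and Xbp1 at 1.86. Their sum was 546, 2230 and 591 CPM at rest and 581, 1590 and 891 with LPS, with 1 gene called in Eμ-deficient against wt, and Jchain stood at 113, 1730 and 171 CPM and then 96.1, 803 and 200. Jchain was the most abundant of them in both Eμ-deficient libraries and Irf4 in the other 4, at 268 to 385 CPM. The part of these other cells in the falls of Myc, Mnt, Mxd1 and Mxd4, and in the Mxd1 level of Eμ-deficient cells, was not tested. The same 5 members were called between resting and LPS without the Eμ-deficient libraries and without the 3′RR-deficient libraries, and without the wt libraries they were called together with Mga and Mlx, 7 in all.

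The genes that MYC is known to activate moved opposite to Myc itself. Of 33 tested, 30 rose with LPS and 0 fell, 90.9% called against 40.8% of all tested genes, of which 19.7% were called higher. The median log2 fold change of the list was 1.80. The list was chosen with earlier results of these data known. Ccnd2, a cyclin gene of early cell division, went from 56.2, 47.5 and 58.1 CPM to 670, 513 and 532 (log2 fold change 3.40, SE 0.28, adjusted p = 8.18e-05, edgeR). Srm, the gene of spermidine synthase, went from 11.1, 9.53 and 10.8 CPM to 66.0, 63.1 and 151 (log2 fold change 3.03, SE 0.30, adjusted p = 0.000171, edgeR). Odc1, Gnl3 and Tert were the 3 not called, named after their values were seen. Scaling by the spike-ins gave 22 of 33 higher and 0 lower.

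All 10 proliferation markers rose as well, where 19.7% of all tested genes were called higher. Their median log2 fold change was 3.38, led by Ccnb1 at 3.99 and Ccna2 at 3.77. Their sum was 244, 400 and 352 CPM at rest and 2190, 1960 and 2390 CPM with LPS. Between genotypes within a state, the median log2 ratio of the MYC activated targets for 3′RR-deficient over wt was 0.05 at rest and 0.10 with LPS, beside 0.02 and 0.11 over all tested genes, and for Eμ-deficient over wt -0.04 and -0.37, beside 0.03 and 0.03. Of these 4 medians, that of the Eμ-deficient LPS library was the 1 that lay more than 0.1 from the median of all tested genes.

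A further 6 genes were picked after their values were seen and stand for no list or class. Fos, a subunit of AP-1, stood at 213, 430 and 398 CPM at rest and at 2.29, 12.8 and 5.28 with LPS (log2 fold change -5.92, adjusted p = 6.65e-05, edgeR). Fosb, Jun, Junb, Egr1 and Ier2, the other 5, fell as well, with log2 fold changes between -7.72 and -1.48. The wt resting library, highest for Myc, was the lowest of its state for Fos, Fosb, Jun and Egr1 and the highest for Junb. Spn, which encodes the CD43 used for depletion and was picked in the same way, was at 14.0, 10.1 and 17.2 CPM at rest and rose to 20.0, 40.4 and 90.1 CPM with LPS.

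In 3 lists of network partners most called genes rose, and falls were called by the fit in the MGA complex alone. Of 13 MYC coactivators, 4 rose and 0 fell (2 and 0 with spike-in scaling), led by the helicase genes Ruvbl2 at 2.09 and Ruvbl1 at 1.85. Of 13 subunits of the SIN3 and NCOR corepressors, 4 rose and 0 fell (1 and 0 with spike-in scaling, 2 and 0 without the Eμ-deficient libraries), led by the histone-binding Rbbp7 at 1.73 and the deacetylase Hdac2 at 1.06. In each of these lists 30.8% of the genes were called, beside 40.8% of all tested genes, a difference that was not tested. With the GC trend removed 6 rose and 0 fell in the first list and 6 rose and 1 fell in the other, while the genes called in all went from 5962 to 7259, and without the wt libraries 6 rose and 0 fell in each. In the MGA complex 4 of 10 rose and 2 fell, 60.0% against 40.8% of all tested genes. The E2F partners were on both sides, Tfdp1 at 2.97 and Tfdp2 at -1.51, next to Cbx3 at 1.83 and Rybp at -0.77. Tfdp2 was at 19.8, 59.8 and 18.8 CPM at rest and 12.6, 9.83 and 7.64 with LPS, highest in the Eμ-deficient resting library, and without the Eμ-deficient libraries 3 genes of this list rose and 0 fell. With spike-in scaling 3 rose and 1 fell, and without the 3′RR-deficient libraries 3 rose and 1 fell. The median log2 fold changes of these 3 lists were 0.31, 0.48 and 0.60, that of the coactivators going to 0.07 without the 3′RR-deficient libraries and to 0.54 without the wt libraries. With spike-in scaling the medians were 0.11, 0.28 and 0.39.

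Of 17 genes that act on MYC protein turnover, 6 rose and 1 fell (median 0.17), 41.2% against 40.8% of all tested genes. With spike-in scaling 3 rose and 1 fell (median -0.03), without the 3′RR-deficient libraries 4 rose and 1 fell, and without the wt or the Eμ-deficient libraries the median was 0.33 or 0.32. The phosphatase inhibitor gene Cip2a, listed under an older name, rose by 3.07 and the kinase gene Aurka by 2.58, both known for keeping MYC protein stable, and the ubiquitin ligase gene Fbxo32 fell by 2.43. A further list held relatives of MYC and MLX, the MYC-binding Mycbp and Mycbp2, the MYB-binding Mybbp1a and Pvt1, a noncoding RNA gene beside Myc. Of its 6 tested genes 2 rose and 3 fell (median -0.33), 83.3% against 40.8% of all tested genes. With spike-in scaling 1 rose and 3 fell (median -0.53). Without the wt libraries the median was -0.13. Mycl, a MYC paralogue, went from 4.84, 5.98 and 4.13 CPM to 0.287, 0.468 and 0.225, and Mycbp2 fell by 1.05, while Mycbp was at 1.83 and Mybbp1a at 1.33.

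Of 7 tested genes in a list of Zbtb17, which encodes MIZ1, and genes that MYC represses, 1 rose and 2 fell, namely Gadd45b at 1.17, Gadd45a at -1.37 and Ndrg1 at -1.23. These are 42.9% of the list, against 40.8% of all tested genes. The median was -0.40, the value of Zbtb17, which was not called. Without the Eμ-deficient libraries 0 rose and 1 fell, without the wt libraries 2 rose and 2 fell with a median of 0.12, without the 3′RR-deficient libraries 2 rose and 1 fell with a median of -0.14, and with spike-in scaling 0 rose and 2 fell with a median of -0.58. With the GC trend removed the median was -0.20. Of 5 targets of MLXIP with MLX, 1 rose and 2 fell (median -0.28), 60.0% against 40.8% of all tested genes. They were the hexokinase gene Hk2 at 1.38, and the arrestin-domain genes Arrdc4 at -3.34 and Txnip at -1.07. Without the 3′RR-deficient libraries 1 rose and 1 fell. With spike-in scaling the median of this list was -0.48, and without the wt libraries, where 1 rose and 3 fell, -0.55. Among 20 other factors of the E-box field, 1 rose and 6 fell (median -0.33), 35.0% against 40.8% of all tested genes. The genes named from this list are Id3 at 1.32, Ahr at -2.70 and Bhlhe40 at -2.55. Without the Eμ-deficient libraries 3 fell, without the 3′RR-deficient libraries 4 fell, without the wt libraries 4 rose and 7 fell, and with the GC trend removed 4 rose and 6 fell. With spike-in scaling the median was -0.54. No gene of these lists, of the activated targets or of the proliferation markers was called between genotypes by edgeR.

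**Figure D5:**
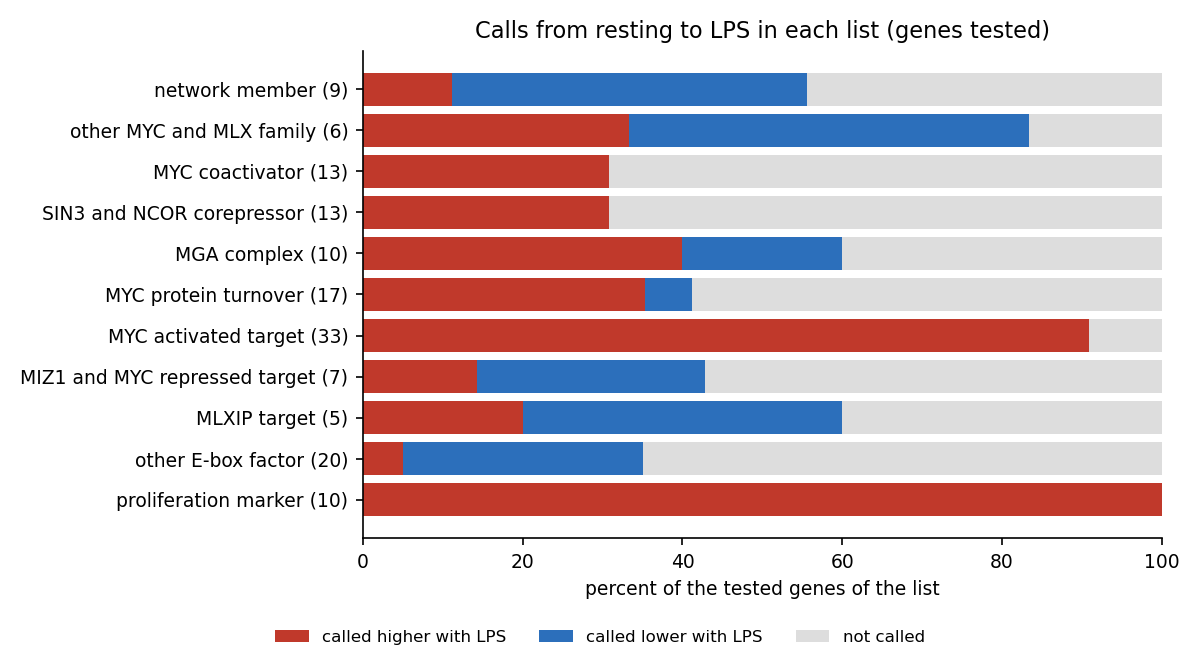
Percent of the tested genes of each list (horizontal axis) called higher, called lower or not called by edgeR from resting to LPS, with the number tested in brackets. Of the MYC activated targets 90.9% are called, all higher, and of the members 55.6%, beside 40.8% of all tested genes.

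The genes whose pattern over the 6 libraries was most like that of Myc were Gm17228, Pim3, a kinase gene, and Pdxk, with root mean square differences of 0.11, 0.15 and 0.16 on the centred log2 CPM scale. The closest member was Mnt at 0.34. For Mxd3 they were Depdc1b at 0.12, the lactate transporter gene Slc16a1 at 0.15 and Ticam2 at 0.15, and no member came closer than Mlx at 0.74. For Mxd4 they were Lmntd2 at 0.04, Fbxw4 at 0.044 and Acap1 at 0.059, with Mxi1 at 0.31 the closest member. Gm17228 rests on at most 1.43 CPM.

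The members lie far apart in the genome. Myc is at chr15:61985391-61990374 (GRCm38, plus strand), Max at chr12:76937269-76962201 (minus strand), Mnt at chr11:74830920-74845725 (plus strand), Mxd4 at chr5:34173883-34187720 (minus strand), Mxd1 at chr6:86647042-86669161 (minus strand) and Mxd3 at chr13:55325168-55329823 (minus strand). Exons of Mxd3, Mxd4, Mxi1 and Mlx overlap those of a gene on the other strand, by 4.43%, 6.06%, 2.84% and 19.3% of their length. The counting used strand option 1, and whether that option matched the strand of the libraries was not checked here.

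Since members of the network bind E-boxes, the promoters of the members themselves were searched for the E-box CACGTG, which reads the same on both strands. RefSeq promoters (build GRCm38.p6, 250 bases before to 50 after the start) were matched for 9 of 10 members, all but Myc. Of their 11 promoters, 4 held the E-box, in Mxd4, Mnt, Mlx and Max, where 7.15% of 32851 promoters did. It lies 219 bases before the start in Mxd4, 123 in Mnt and 40 in Mlx, and spans the start in Max. Mxd1, a repressor gene called lower as Mnt and Mxd4 were, had none. Below are the stretches around it, in the direction of the gene with the E-box in capitals, for 2 of the 3 repressor genes called lower, Mnt (chr11:74830764-74830843, plus strand) and Mxd4 (chr5:34187887-34187960, minus strand), and for Mlx (chr11:101087213-101087289, plus strand), whose level was not called.
Mnt: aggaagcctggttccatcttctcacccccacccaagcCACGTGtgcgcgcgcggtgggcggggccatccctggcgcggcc
Mxd4: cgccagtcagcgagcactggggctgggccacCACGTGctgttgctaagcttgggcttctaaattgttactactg
Mlx: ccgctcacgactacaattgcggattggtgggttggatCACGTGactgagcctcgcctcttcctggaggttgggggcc
A match describes the letters of the window and does not show binding. The E2F-type words TTTCCCGC and TTTGGCGC, on either strand, were in 1 of the 11 promoters, that of Mycn, which holds no E-box, and in 1.56% of all promoters.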

How the data were processed

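After depletion of ribosomal RNA, the authors prepared stranded total RNA libraries and read both ends for 150 nt. They aligned with STAR 2.4.0a to mm10 and assigned fragments to Ensembl 77 genes, by name, in featureCounts with strand option 1, counting multi-mapping reads too. They deposited raw counts for 6 libraries. Of 47055 names, 92 are spike-in RNAs with 4.75% to 7.10% of the counts, left out of library sizes and tests. Places, exon lengths and GC content come from GENCODE M21 on the same build, in which 44131 names were found. The deletions themselves lie in no gene of the table, so that the labels' genotypes could not be checked on the deleted sequence. Transcripts of the constant genes, which the study reports as reduced in 3′RR-deficient cells (Cμ excepted with LPS), were not used as a check here.

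An edgeR 4.0.16 quasi-likelihood model (R 4.3.3) took genotype and state as additive terms and was fitted to 14600 genes that reached 10 counts in 2 or more libraries, with TMM scaling, Benjamini-Hochberg adjustment over all of them and a threshold of 0.05 ("called", "rose", "fell"). A log2 fold change given alone is that of LPS over resting from this fit. The fit has 2 residual degrees of freedom. Within a state, the log2 ratio of CPM of 2 libraries has the exact conditional binomial (Clopper-Pearson) 95% interval (scipy 1.17.1), and a library under 3 counts was set to 3 counts. The intervals leave out amplification, as reads copied from a molecule are not independent. The fit was tested on simulated counts that held no genotype effect and no trend on GC content, so that test does not cover these.

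The members and the 16 other gene lists were chosen with earlier results of these data known. From each list the 2 largest rises and 2 largest falls are named, out of its called genes with 1 direction in all 3 genotypes; 1 gene so named is not reported here. Alternatives were other scalings (total count, DESeq2 size factors, spike-ins, without immunoglobulin genes), DESeq2 1.42.0, limma 3.58.1 voom, other filters, no genotype block, removal of the trend on GC content, and leaving out each genotype. Of the listed names, the activated target Phb1 had no row under that symbol or a RefSeq synonym and was left out; a row named Phb is in the table and was not used in its place.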

Additional observations from a re-analysis of the deposited data

Results flagged for a closer look

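In 4 cases a member's log2 ratio between a mutant and the wt library had opposite signs at rest and with LPS, with both 95% counting intervals away from 0. Each value below is the LPS ratio minus the resting ratio, and the difference was not tested, since each group has 1 library. For Myc in 3′RR-deficient against wt it was 1.34, from -0.77 at rest to 0.57 with LPS. It was 2.14 with scaling by spike-ins and 0.857 once the trend on GC content was taken out, with an LPS ratio of 0.14. For Mnt in the same comparison it was 0.862, from -0.25 to 0.62. It was 1.66 with spike-ins and 0.061 without the GC trend, both ratios then being below 0. For Mxd4 in Eμ-deficient against wt it was 0.536, from -0.14 to 0.40, and it was 1.5 with spike-ins and 0.383 without the GC trend. For Mga in Eμ-deficient against wt it was -0.331, from 0.21 to -0.12. Its sign turned with spike-ins, to 0.631, and without the GC trend, to 0.0589, and with the total count it was -0.0971.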

How the results depend on the processing

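The 5 members called from resting to LPS kept their direction and call under all alternatives, except Mxd1 without a genotype block and Mxd3, which the filter at 50 counts left out. With the trend on GC content removed 8 members were called, Mga, Mlx and Mxi1 in addition, and over the other alternatives 5 to 7. Genes called from resting to LPS numbered 4032 to 7259, against 5962. For Eμ-deficient against wt, where 170 genes were called, the count was 340 with the DESeq2 Wald test, 605 with no filter on low counts, 102 for genes that reached 50 counts in 3 or more libraries, and 446 without the 3′RR-deficient libraries. For 3′RR-deficient against wt, where 99 were called, it was 170 with scaling by spike-ins, 178 with the DESeq2 Wald test, 339 with no filter, 48 with the filter at 50 counts, and 188 without the Eμ-deficient libraries. More or fewer genes entered under the filters, and fewer libraries when a genotype was left out; for the other settings the cause was not tested. No member was called between genotypes under any of these. Of the 36 ratios within a state, 23 left their counting interval with scaling by spike-ins, 11 with the total count and 9 with the trend on GC content removed, and 7, 2 and 5 of these also changed sign; with DESeq2 size factors and log2(CPM + 1) none did. Low depth limits Mycn, Mxi1 and Mxd3.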
